A study of Mus musculus with 6 samples.

Results

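Mouse genes whose symbol is Gm followed by a number, or ends in Rik, were catalogued by genome annotation or by the RIKEN cDNA project and had no functional name in the annotation used for these tables. Their splicing in hepatocytes was followed through local splicing variations (LSVs), each of which is a set of junctions, and in some cases a retained intron, leaving or entering 1 exon. The members were the LSVs with the same identifier and the same junction coordinates in the tables of both diets, in genes with such a name. The 5 genes Gm8893, Gm12940, Gm21320, B430119L08Rik and 5830473C10Rik were left out by the rule. This gave 1371 LSVs in 431 genes, out of 26910 LSVs in 5978 genes present for both diets. Of these, 845 LSVs lay in 255 Gm genes and 526 in 176 Rik genes.

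The hepatocytes came from livers of male C57BL/6J mice. Every mouse was raised on chow (13.5% fat). At an age of 8 weeks the mice were moved for 12 weeks to food with 60% fat, the high fat diet (HFD), or with 10% fat, the low fat diet (LFD), and 3 libraries were made per diet. Stranded mRNA libraries were read as pairs. The deposited PSI tables hold 1 value per diet for each junction or intron, with a posterior variance, and no value per library, so no PSI difference below has a replicate test and the depth behind it is unknown. LSVs were found in 8 of 8 hepatocyte marker genes on both diets, in 2 of 7 Kupffer cell, 2 of 7 endothelial, 1 of 5 bile duct and 0 of 3 lymphocyte marker genes. Of 6 stellate cell markers, 1 had an LSV on the LFD and 0 on the HFD. The presence of an LSV is not a level of expression.

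PSI, percent spliced in, is the estimated share of an LSV's reads that use 1 of its entries, given here as a fraction from 0.0125 to 0.9875, the ends of the estimation grid. In most mammalian introns the RNA begins with GT and ends with AG, written as DNA. An intron read from the wrong strand therefore begins with CT and ends with AC. Many genes without a functional name are long noncoding RNAs, some of which run antisense across a protein coding gene. Others are readthrough transcripts that span several neighbouring genes and share their exons. Reads from overlapping genes can then be credited to more than 1 of them.

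The current names of the members differed in part from those in the tables. In GENCODE M21, 424 of 432 gene identifiers were found, and 54 of these had a symbol outside the name rule, 49 of them protein coding. Protein coding genes held 639 of the member LSVs, antisense long noncoding RNAs 348, intergenic long noncoding RNAs 186, other noncoding genes 151 and pseudogenes 32, and 15 LSVs lay in the 8 genes that M21 did not hold. Of the member genes, 267 overlapped a named protein coding gene on the opposite strand.

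The letters at the ends of the introns show which strand they fit. Those shown here belong to 3 of the 5 genes that differed between the diets, by the rule given below, and have an entry at an annotated intron of a named gene on the opposite strand. They were read from GENCODE M21 transcripts (GRCm38, the mm10 assembly), 5′ to 3′, with the first and last pair of intron bases in capitals. The first is the whole 94-base intron at chr4:134244921-134245034, in LSVs credited to E130218I03Rik, with 10 flanking bases on each side. It is given first on that gene's plus strand and then on the minus strand, the strand of Zfp593.
E130218I03Rik, plus strand: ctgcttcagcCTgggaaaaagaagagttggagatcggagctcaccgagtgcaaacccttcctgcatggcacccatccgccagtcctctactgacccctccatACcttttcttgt
Zfp593, minus strand: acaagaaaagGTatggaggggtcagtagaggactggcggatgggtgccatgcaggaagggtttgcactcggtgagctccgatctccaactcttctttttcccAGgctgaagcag
The second is the 104-base intron at chr3:96579902-96580025, in an LSV credited to Gm16253 on the plus strand, with Polr3gl on the minus strand.
Gm16253, plus strand: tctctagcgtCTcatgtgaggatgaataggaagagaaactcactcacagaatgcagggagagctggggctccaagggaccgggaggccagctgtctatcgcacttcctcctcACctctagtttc
Polr3gl, minus strand: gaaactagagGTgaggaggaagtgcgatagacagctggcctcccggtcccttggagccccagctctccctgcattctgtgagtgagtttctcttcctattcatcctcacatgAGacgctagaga
For the 301-base intron in an LSV credited to D030055H07Rik the ends lie at chr9:106156098-106156119 and chr9:106156397-106156418, with Glyctk on the minus strand.
D030055H07Rik, start of the intron, plus strand: ggcttatcacCTagacaaaggc
D030055H07Rik, end of the intron, plus strand: tgattagtgcACctgagcagga
Glyctk, start of the intron, minus strand: tcctgctcagGTgcactaatca
Glyctk, end of the intron, minus strand: gcctttgtctAGgtgataagcc
In all 3 introns the GT and AG stood on the strand of the named gene, and the strand of the Gm or Rik gene read CT and AC. These introns were picked for their annotation on the named gene's strand, so the letters follow from that choice.

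The same held across the members. Of 3317 spliced entries of member LSVs, 791 (23.8%) had exactly the coordinates of an M21 intron on the opposite strand and of none on the gene's own strand. In genes outside the name rule this was 892 of 57789 spliced entries (1.54%). Another 1708 member entries (51.5%) were M21 introns on the gene's own strand, against 71.5% outside the name rule. Both intron ends lay inside an M21 exon, and could be read, for 306 of the 791 entries. Of these, 304 began with CT and ended with AC or GC on the gene's strand, and 0 read GT or GC to AG. Among 393 readable entries that were introns on the gene's own strand, 380 read GT or GC to AG and 0 read CT to AC or GC. Both sets were picked by the strand of an annotated intron. Their letters therefore follow from the annotation and do not show the strand of the reads. Entries at no M21 intron were not picked by strand. Of 188 readable ones, 110 read GT or GC to AG and 67 read CT to AC or GC. The sites that could be read are only those that an M21 exon covers.

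The antisense genes held most of these entries. In antisense long noncoding RNAs 406 of 837 spliced entries (48.5%) were opposite-strand introns, and 296 of 348 LSVs had at least 1. The share was 33.2% of entries in intergenic long noncoding RNAs, 30.8% in other noncoding genes, 10.8% in pseudogenes and 6.98% in protein coding genes. At least 1 such entry stood in 560 of all 1371 member LSVs (40.8%), and 279 LSVs had such entries and no M21 intron on their own strand. The libraries were stranded, but no source used here says whether junction reads were counted by strand, so reads of a member and of its opposite-strand partner cannot be told apart. For these LSVs the 5′ and 3′ site classes below also follow the strand of the gene credited.

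**Figure D1:**
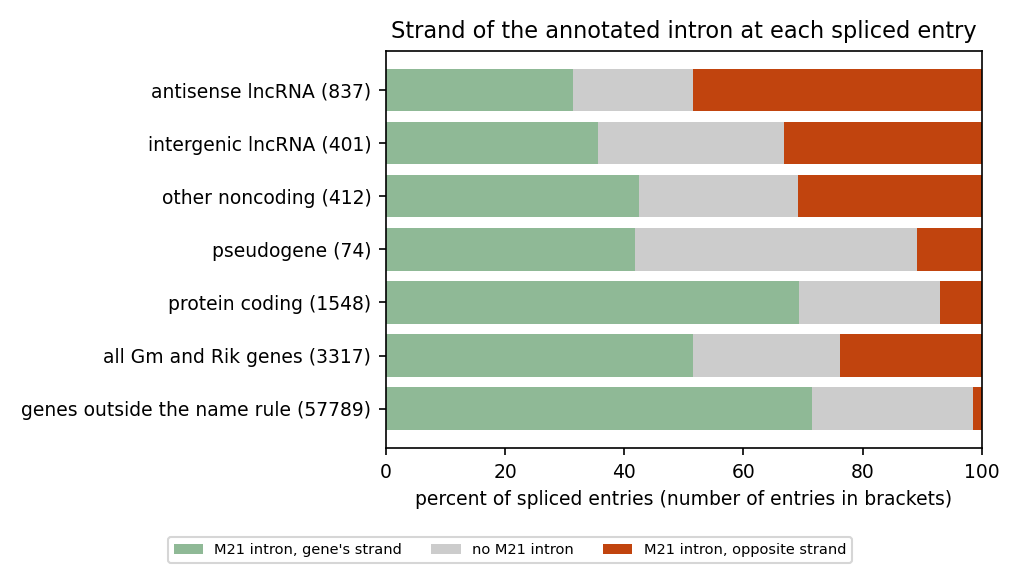
Percent of spliced entries (x axis) that coincide with a GENCODE M21 intron on the strand of the gene credited, with one on the opposite strand only, or with none, for 5 groups of Gm and Rik genes, for all of them and for genes outside the name rule. Opposite-strand introns made up 48.5% of the entries of antisense long noncoding RNAs and 1.54% of those outside the name rule.

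Of the 791 opposite-strand entries, 537 in 144 member genes were also entries of an LSV credited to a named gene, 164 genes in all. The PSI values credited to both strands were then nearly the same for most. Taking the closest LSV of the named gene, the larger gap over both diets had a median of 0.00121 and was at most 0.02 for 416 entries (77.5%). Taking the farthest LSV, the median was 0.0106 and 313 entries stayed within 0.02. Of the 560 member LSVs with an opposite-strand entry, 126 (22.5%) had any entry with a PSI of 0.1 to 0.9 on both diets. Near either end of the scale unrelated junctions can also have close values, and the gaps were not split by PSI. The gap to the closest LSV was over 0.05 for 97 entries. In 71 of these the named gene's PSI on the LFD was over 0.9 and the member's was lower.

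**Figure D2:**
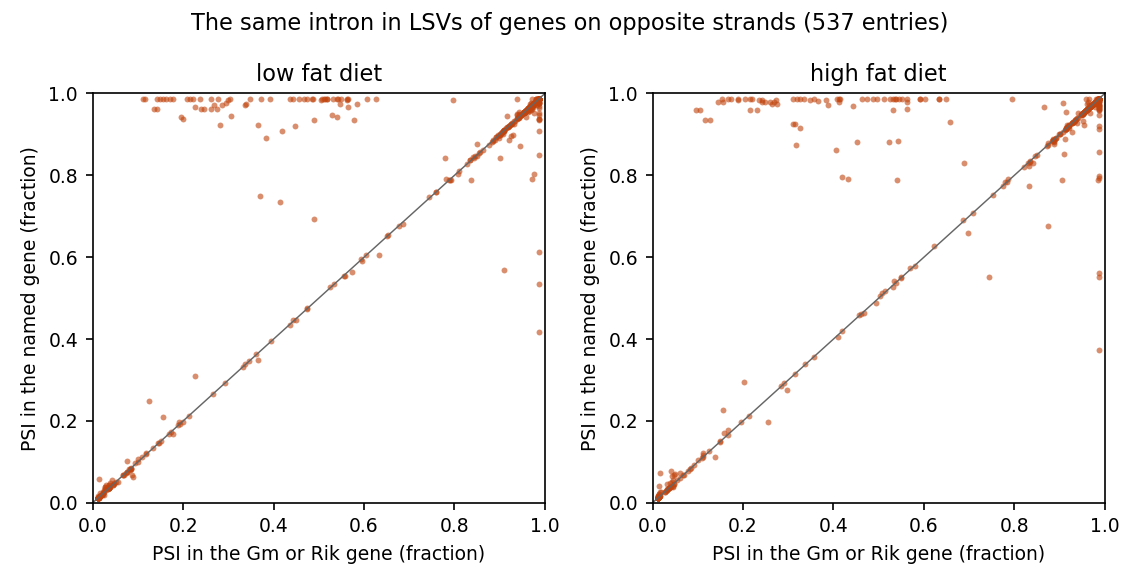
PSI of the same intron in an LSV of a Gm or Rik gene (x axis) and in the closest LSV of a named gene on the opposite strand (y axis), on each diet, for 537 entries. Most points lie on the line of equal PSI, and 97 are apart by over 0.05 on at least 1 diet.

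Most member LSVs were alike on both diets. The largest absolute PSI difference of an LSV had a median of 0.010 over the members and 0.00681 over all LSVs, and it was under 0.05 in 1122 members (81.8%). An LSV counted as different where an entry differed by at least 0.2 and by more than the 95% margin of the combined posterior error. By this rule 15 member LSVs in 13 genes differed (1.09%), beside 168 of all 26910 LSVs (0.624%). At a difference of 0.1, 75 member LSVs in 54 genes differed (5.47%), beside 4.17% of all LSVs. More of the members had an entry with a PSI of 0.1 to 0.9 on both diets, 293 LSVs (21.4%) against 13.3% of all. Among these mixed LSVs, 43 of 293 members (14.7%) differed by 0.1, against 15.9% of all. The share was not even among the members. It was 11 of 126 (8.73%) for mixed LSVs with an opposite-strand entry. It was 27 of 126 (21.4%) for those with no such entry and no junction shared with a named gene. The reason for this was not tested. The median posterior SD at the 630 mixed member entries was 0.0290 on the LFD and 0.0311 on the HFD, and the variance was larger on the HFD in 74.4% of them. At the 7126 mixed entries of all LSVs the medians were 0.0286 and 0.0321, and the share was 81.3%. The smallest difference inside the rule was 0.201 in Gm12909, and the largest outside it was 0.183, also in Gm12909.

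**Figure D3:**
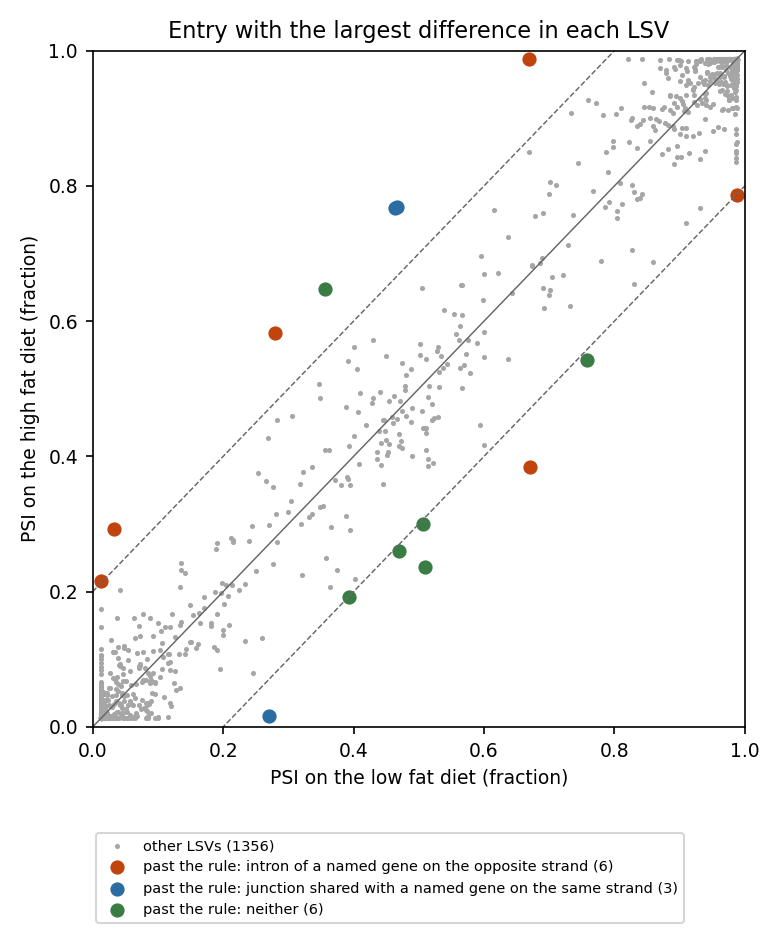
PSI on the LFD (x axis) and on the HFD (y axis) of the entry with the largest difference in each of the 1371 LSVs, with dashed lines at a difference of 0.2. The 15 coloured LSVs lie beyond the lines, and most of the others lie near the diagonal or at either end of the scale.

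Of the 15 LSVs, 6 in 5 genes had an entry at an opposite-strand intron. These were 6 of 560 such members (1.07%), close to the 1.09% of all members past the rule. The largest difference of all was in D030055H07Rik, an antisense long noncoding RNA opposite Glyctk, the gene of glycerate kinase, which acts in serine and fructose breakdown. The junction chr9:106156107-106156409, whose ends are printed above, had a PSI of 0.669 ± 0.0356 (posterior SD, as for each PSI below) on the LFD and 0.988 on the HFD, the upper end of the grid. The 1922-base retained intron in the same LSV, chr9:106153030-106154951, went with it, at 0.331 ± 0.0356 on the LFD and at the lower end, 0.0125, on the HFD. These entries share no splice site with each other.

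E130218I03Rik, opposite the zinc finger gene Zfp593, had 2 LSVs past the rule that share the same pair of introns. In the LSV named for junctions leaving the exon, the 94-base intron printed above had 0.671 ± 0.0518 on the LFD and 0.384 ± 0.0463 on the HFD, and the 216-base intron chr4:134245087-134245304 had 0.266 ± 0.0487 and 0.541 ± 0.0473. In the LSV named for junctions entering it, the 216-base intron had 0.280 ± 0.0511 and 0.583 ± 0.0488. Both are consecutive introns of Zfp593 in M21, so these PSI values set 2 introns of 1 named transcript against each other. The LSVs' own annotated plus-strand junctions stayed near 0.0125 on both diets.

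Gm16253 overlaps Polr3gl, the gene of a subunit of RNA polymerase III. The 104-base intron printed above is annotated for Polr3gl and not for Gm16253. In the Gm16253 LSV it was retained at 0.0129 ± 0.00324 on the LFD and 0.216 ± 0.0388 on the HFD, a difference of 0.203. In the LSV of Polr3gl at the same exon, splicing of this intron had 0.987 on the LFD and 0.783 on the HFD, against 0.987 and 0.784 in Gm16253. Seen from the intron's other exon the difference was smaller: retention was 0.0129 ± 0.00322 on the LFD and 0.115 ± 0.0316 on the HFD in Gm16253, and splicing was 0.987 and 0.884 in the Polr3gl LSV there. Both genes thus had nearly the same values at each exon.

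Gm15690 lies opposite Sds, the gene of serine dehydratase, a liver enzyme of gluconeogenesis from serine. Its junction chr5:120480898-120481453 had 0.988 on the LFD and 0.786 ± 0.0254 on the HFD. The intron between, chr5:120480904-120481452, was retained at 0.0125 and 0.198 ± 0.0250. The same junction had 0.988 and 0.797, and 0.988 and 0.792, in the 2 LSVs of Sds. In M21, Gm15690 is on the minus strand and starts at position 120480903, so that intron lies upstream of it.

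Gm17300 is an intergenic long noncoding RNA in M21. A retained 84-base intron annotated on its strand, chr4:132352721-132352804, had 0.0323 ± 0.0146 on the LFD and 0.293 ± 0.0370 on the HFD. The annotated splice of that intron stayed at 0.0125 on both, and the strand of the retained reads cannot be told. The other entries were 2 introns of Snhg3, a snoRNA host gene on the opposite strand, with 0.849 ± 0.0263 and 0.657 ± 0.0389 for the junction of 419 bases and 0.118 ± 0.0237 and 0.0488 ± 0.0178 for that of 376 bases. In the LSV of Snhg3 itself, which lacks the retained intron, the 419-base junction had 0.877 and 0.930. PSI is a share of all entries of an LSV, and only the Gm17300 LSV counts the retained intron. The 2 PSI values of this junction are therefore not comparable. Their opposite directions do not show that its use moved in opposite ways.

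**Figure D4:**
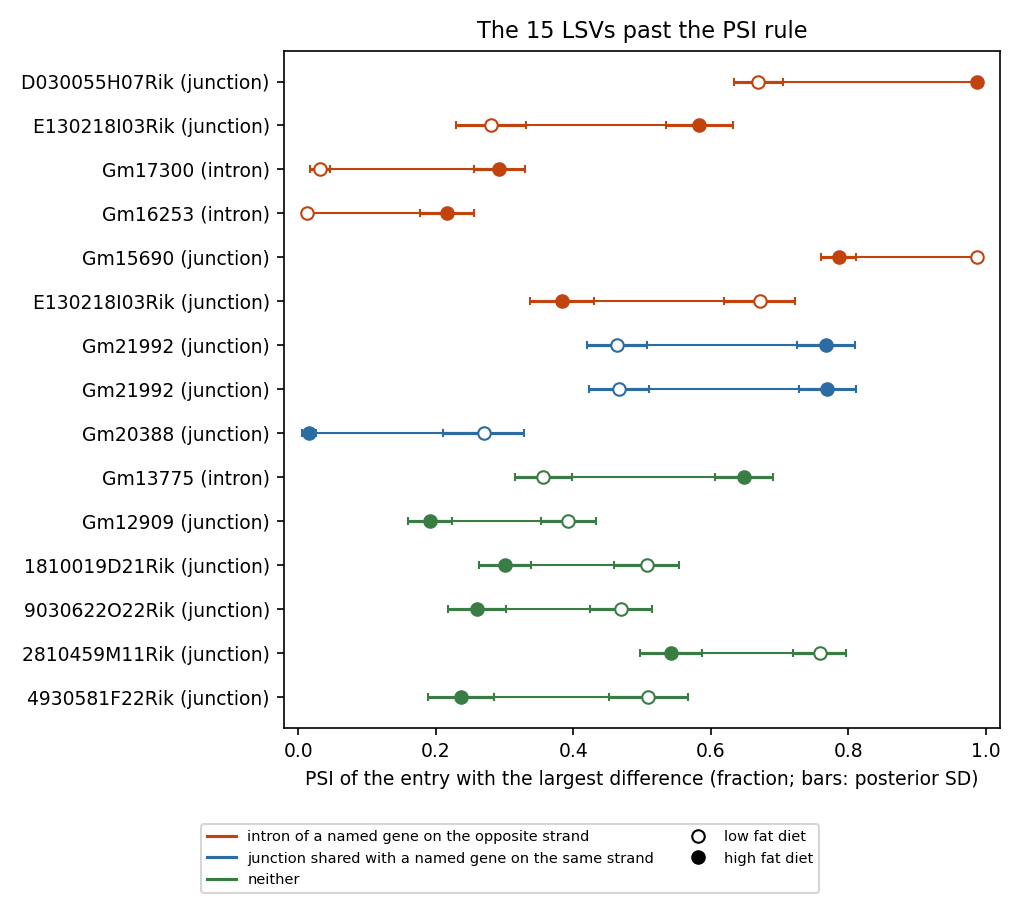
PSI (x axis) of the entry with the largest difference in each of the 15 LSVs past the rule, on the LFD (open circles) and the HFD (filled circles), with posterior SDs as bars. Colours mark the 6 LSVs with an entry at an opposite-strand intron of a named gene, the 3 that share a junction with a named gene on the same strand, and the 6 with neither.

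A further 3 of the 15 LSVs shared their junctions with a named gene on the same strand, out of 259 such members (1.16%). Gm21992, listed by RefSeq as a readthrough of Rbm14 and Rbm4, spans Rbm4, the gene of an RNA-binding splicing regulator. The exon boundary at chr19:4792820, in its coding sequence, was joined to 4793816 with a PSI of 0.464 ± 0.0441 on the LFD and 0.768 ± 0.0421 on the HFD, and to 4793672 with 0.477 ± 0.0441 and 0.227 ± 0.0418. The same junctions seen from the other exon had 0.466 ± 0.0439 and 0.769 ± 0.0420, and 0.474 ± 0.0438 and 0.225 ± 0.0417. The junction that joins this boundary to the exon at 4811172, far upstream on the minus strand, stayed at 0.0125 and 0.0126. In a further LSV of Gm21992, with identical entries in Rbm4, the junction chr19:4788042-4792398 had 0.859 and 0.688 in Gm21992, and 0.859 and 0.690 in Rbm4.

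Gm20388 had the third. It spans chr8:119910841-124345722 in M21 and overlaps 37 named protein coding genes on its own strand. The junction chr8:123066359-123066473, shared with Spg7, the gene of a mitochondrial protease, had 0.270 ± 0.0589 on the LFD and 0.0157 ± 0.0105 on the HFD. The other junction into that exon, chr8:123065709-123066473, had 0.730 and 0.984. Gm20388 also held LSVs identical to those of Zc3h18, where chr8:122386946-122387693 had 0.522 and 0.390 in Gm20388 against 0.520 and 0.393 in Zc3h18, and of Rab4a, where chr8:123829058-123830233 had 0.773 and 0.923 against 0.775 and 0.923.

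The 5 genes with the most LSVs were all of this overlapping kind. Gm20388 had 51 LSVs, Gm26904 38, Gm20547 33, Gm26694 30 and Gm26745 19, together 171. A junction was shared with a named gene in 25 of 51 LSVs of Gm20388, 11 of 38 of Gm26904 and 14 of 30 of Gm26694. Gm20547 covers Cfb and C2, genes of complement proteins made in the liver, and shared a junction with a named gene in 28 of 33 LSVs. Gm26745 covers Hpd, the gene of an enzyme of tyrosine breakdown, and shared in 19 of 19, with a largest difference of 0.00941. Over all members, 259 LSVs (18.9%) in 56 genes shared a junction with a named gene on the same strand, and 234 of them lay in genes that overlap 2 or more named coding genes. In 149 LSVs every entry had its counterpart in an LSV of the named gene, and the largest gap in PSI was 0.00782. Such a pair is 1 measurement under 2 gene names.

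The remaining 6 LSVs past the rule, in 6 genes, had no entry at an opposite-strand intron and shared no junction of the LSV with a named gene. Members of this kind numbered 568, so 1.06% of them passed. In 2810459M11Rik, a protein coding gene, 2 acceptor sites in the coding sequence lie 3 bases apart. The junction chr1:86046572-86048588 had 0.240 ± 0.0386 on the LFD and 0.424 ± 0.0444 on the HFD, and chr1:86046572-86048591 had 0.758 ± 0.0387 and 0.542 ± 0.0447. The bases from the first site on, read at chr1:86048588-86048617, are shown with those that only the first site keeps in capitals. The other 3 sequences, for comparison, are members with acceptor sites 8, 12 and 3 bases apart, at chr9:35118199-35118228, chr4:62090110-62090139 and chr6:116651693-116651722.
2810459M11Rik: CAGaaggtgcctgggaaagacctgcccgca
4930581F22Rik: GGAAAAAGaagaaggcaaaagaaaaactgc
Gm12909: TTCTCTTTTCAGgaactcagtaaccagtcg
8430408G22Rik: CAGctatgaggtcccggcttctgctgcccg
In 2810459M11Rik and 8430408G22Rik the sites differ by 1 CAG triplet, a common form of tandem acceptor, and in Gm12909 the 12 added bases themselves end in CAG.

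In 4930581F22Rik, a noncoding gene opposite Dcps and St3gal4, the junction chr9:35117856-35118199 had 0.509 ± 0.0574 on the LFD and 0.237 ± 0.0480 on the HFD. The retained intron of 124 bases, chr9:35117857-35117980, had 0.487 ± 0.0574 and 0.702 ± 0.0513. The junction 8 bases further on had 0.0131 and 0.0606. Gm12909, an antisense long noncoding RNA, joined chr4:62088409 to 62090110 with 0.393 ± 0.0402 on the LFD and 0.192 ± 0.0321 on the HFD. The site 12 bases on, at 62090122, had 0.411 ± 0.0401 and 0.495 ± 0.0402 from the same donor. The LSV on the donor side gave 0.403 and 0.219 for the first junction and 0.420 and 0.555 for the second. None of these junctions from the first donor to the last exon was an M21 intron.

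In 1810019D21Rik, a noncoding gene opposite Esrp2, itself a regulator of epithelial splicing, the annotated junction chr8:106137350-106137828 had 0.507 ± 0.0476 on the LFD and 0.301 ± 0.0384 on the HFD. The retained intron chr8:106137351-106137468 had 0.435 ± 0.0473 and 0.567 ± 0.0414. In 9030622O22Rik, an intergenic long noncoding RNA on the minus strand, the first exon, with its boundary at chr2:148040141, was joined to 148038239 with 0.470 ± 0.0451 and 0.260 ± 0.0424, and to 148011355 with 0.366 ± 0.0428 and 0.502 ± 0.0484. Neither junction was in M21, and the one that was, chr2:147988865-148040141, had 0.0135 and 0.0152.

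Gm13775, a noncoding gene that in another LSV shares a junction with Mup-ps16, a pseudogene of the major urinary proteins, had the largest difference of these 6. Its intron chr4:61796650-61796797 was retained at 0.357 ± 0.0419 on the LFD and 0.648 ± 0.0417 on the HFD, and spliced at 0.510 ± 0.0439 and 0.350 ± 0.0417. A junction of 13298 bases into the same exon had 0.133 ± 0.0291 and 0.0126. The LSV on the other side of that intron gave 0.305 ± 0.0291 and 0.459 ± 0.0344 for its retention. The major urinary protein genes are near-identical copies, so the placement of reads here is uncertain.

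The 54 genes that now carry a symbol outside the name rule held 173 LSVs. Of these, 8 LSVs differed by 0.1 (4.62%), close to the 4.17% of all LSVs, and 0 by 0.2. Ldah (1110057K04Rik), a lipid droplet-associated hydrolase, had 0.615 ± 0.0361 on the LFD and 0.764 ± 0.0345 on the HFD for chr12:8208204-8220600. Khdc4 (2810403A07Rik), an RNA-binding protein, had 0.931 ± 0.0220 and 0.767 ± 0.0434 for chr3:88710852-88711630. Hpf1 (2700029M09Rik), a cofactor of poly-ADP-ribosylation, had 0.987 and 0.877 ± 0.0458 for chr8:60905720-60907337. In C9orf72 (3110043O21Rik), a gene of membrane traffic and autophagy, a 116-base intron was retained at 0.136 ± 0.0327 and 0.243 ± 0.0423. Seen from its other exon, this intron had 0.189 ± 0.0365 and 0.263 ± 0.0422, a difference under 0.1. The others were Hectd2os (1500017E21Rik), with 0.247 and 0.0792, Abhd18 (3110057O12Rik), with 0.986 and 0.849, Umad1 (Gm16039), with 0.870 and 0.974, and Tedc2 (1600002H07Rik), with 0.884 and 0.987. Differences were under 0.1 in 2 further genes of liver metabolism, picked after their values were seen. Angptl8 (Gm6484), a secreted regulator of triglyceride clearance, retained a 98-base intron at 0.0471 ± 0.0123 and 0.0780 ± 0.0146. Sult2a8 (2810007J24Rik), a hepatic sulfotransferase, had 0.245 ± 0.0231 and 0.297 ± 0.0232 for chr7:14428050-14438456.

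By class, 962 member LSVs (70.2%) included exon skipping, against 65.4% of all LSVs. Alternative 3′ sites stood in 563 (41.1% against 31.5%), alternative 5′ sites in 447 (32.6% against 22.3%) and a retained intron in 311 (22.7% against 25.4%). An LSV can be in several classes. The 2 members with the smallest posterior SD and a PSI of 0.1 to 0.9 on both diets were taken among LSVs of 1 class only, and these 6 LSVs each differed by under 0.05. No member LSV with alternative 5′ sites alone met the PSI limits. For exon skipping, 1500017E21Rik had 0.865 ± 0.0197 on the LFD and 0.845 ± 0.0183 on the HFD, and Gm11789, opposite the glucagon receptor gene Gcgr, had 0.869 ± 0.020 and 0.897 ± 0.0189. For 3′ sites, 8430408G22Rik, now Depp1, used its first of 2 sites at 0.830 ± 0.0186 and 0.791 ± 0.0244. For Gm16332, a pseudogene, the 2 sites 3 bases apart had 0.682 and 0.318 ± 0.0278 on the LFD, and 0.640 and 0.360 ± 0.0287 on the HFD. For retained introns, Gm10319 had 0.141 ± 0.0162 and 0.111 ± 0.0156. Gm15441, opposite Txnip, had 0.123 ± 0.0147 and 0.108 ± 0.0161, and its intron is one of the opposite-strand kind.

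Acceptor sites at most 12 bases apart were counted in the 784 member LSVs with an M21 intron on their own strand and none on the opposite one. They occurred in 70 (8.93%), against 7.91% of 25693 LSVs of all genes held to the same condition. Of 81 such pairs of junctions, 27 (33.3%) were 3 bases apart, against 37.2% over all genes. In 4932438A13Rik, a protein coding gene, the first of 2 sites 3 bases apart had 0.858 ± 0.0353 on the LFD and 0.939 ± 0.0271 on the HFD. In 0610007P14Rik, now Erg28, sites 4 bases apart had 0.843 ± 0.0225 and 0.147 ± 0.0220 on the LFD, and 0.897 ± 0.0228 and 0.10 ± 0.0226 on the HFD.

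Retained introns were listed 311 times in member LSVs, for 177 introns with a median length of 108 bases. The mean PSI over the diets was at least 0.2 for 24.1% of these entries, against 11.0% over all LSVs. The longest in use by this limit on both diets was the 265-base intron of 4930506C21Rik, with 0.392 ± 0.0284 on the LFD and 0.367 ± 0.0278 on the HFD from 1 of its exons and 0.988 on both diets from the other, followed by introns of 207 bases in Gm10680, opposite the apolipoprotein gene Apoa4, and of 183 bases in Gm15886. Those of Gm10680 and Gm15886 had a PSI of 0.985 or more on both diets. A retained intron inside an exon of a gene on the other strand cannot be told apart from that exon without strand. Past a difference of 0.1, 26 of the 311 entries (8.36%) differed, 20 higher and 6 lower on the HFD, and over all LSVs 312 of 6848 (4.56%) did, 189 higher and 123 lower. Among those higher were B630019A10Rik, at 0.669 ± 0.0475 and 0.850 ± 0.0501 for its 99-base intron, E230016M11Rik, at 0.0130 and 0.138 ± 0.0237, and Gm21092, at 0.399 ± 0.0544 and 0.582 ± 0.0547. The lower ones included 2 entries for 1 intron of 81 bases in Gm20388, at 0.594 and 0.446, and at 0.608 and 0.458. Some introns are listed from both of their exons, so these entries are not independent.

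The authors' deposited table of differences between the diets, from a separate run, lists 124 LSVs in all. It holds 11 member LSVs in 8 genes, 0.802% of the members, where 0.36% of all LSVs present for both diets are listed. Of the 11, 8 also passed the rule on the PSI tables, and 7 LSVs that passed the rule are not listed in the authors' deposited table. In the authors' deposited table, D030055H07Rik had 0.663 on the LFD and 0.999 on the HFD, and the first LSV of Gm21992 had 0.468 and 0.770, close to the PSI tables. For 4 LSVs some values lay 0.1 or more apart or an entry with a PSI over 0.1 stood in 1 source only. At Gm13775, chr4:61783178-61784912 had 0.006 and 0.246 in the authors' deposited table but 0.283 ± 0.0474 and 0.273 ± 0.0524 in the PSI tables. At Gm20388, in the LSV it shares with Cox4i1, chr8:120668375-120669309 had 0.766 and 0.986 in the authors' deposited table but 0.0386 and 0.0640 in the PSI tables. The PSI tables also hold chr8:120668355-120669309 in this LSV, which the authors' deposited table does not list. The shares there are over different entries and are not directly comparable. At B630019A10Rik the authors' deposited table lists a retained intron of 271 bases at 0.233 and 0.001 that the PSI tables do not hold for this LSV. At the LSV of E130218I03Rik for junctions entering the exon, the authors' deposited table gives the 94-base intron 0.613 on the LFD, against 0.713 ± 0.0515 in the PSI tables, and lists a retained intron of 245 bases at 0.141 and 0.042 that the PSI tables do not hold there.

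JUM, a tool that finds splicing events without an annotation, was also run by the authors. The authors' deposited table from JUM lists 11 events in 10 member genes, and 2 of them (18.2%) were past an adjusted p of 0.05, beside 17.7% of all 470 events listed. The largest unadjusted JUM p listed was 0.0497, so both shares are of events listed and not of all events tested. In F830016B08Rik an alternative 5′ site had a change of -0.179, lower on the HFD, in the authors' deposited table (JUM adjusted p = 0.0228). In Gm5424 an alternative 3′ site moved by 0.0042 in the authors' deposited table (JUM adjusted p = 0.00511). The other 9 events did not pass. They include 0610031O16Rik, an antisense long noncoding RNA, where the authors' deposited table gives a change of -0.133 (adjusted p = 0.338), and the PSI of chr3:138229950-138237601 was 0.364 ± 0.0262 on the LFD and 0.207 ± 0.0211 on the HFD. For A230050P20Rik the authors' deposited table gives a change of 0.131 (adjusted p = 0.345), and the PSI of chr9:20869653-20869762 was 0.253 ± 0.0252 and 0.375 ± 0.0310. Both genes thus had the same direction in both tables for the junction named.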

How the data were processed

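Hepatocyte mRNA libraries, 3 per diet, were processed with FastQC and STAR against mm10, per the submitters' processing notes, without versions. Per the headers, the authors deposited MAJIQ tables with expected PSI (a fraction) and its variance for each diet, libraries pooled, a table of PSI differences, and a JUM table of changes with p-values. No source used here gives the depth per library or the strand setting of the counting.

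LSVs were joined on identifier and junction coordinates. An LSV passed where an entry differed by at least 0.2 and by more than the 95% margin of its posterior error, the variances of both diets summed. This is no replicate test, and for entries at either end of the grid the posterior SD is not an error. Background shares were computed over all LSVs. Introns, gene types and letters came from GENCODE M21 and symbols from RefSeq (GRCm38.p6). JUM junctions were matched after adding 2 to the downstream coordinate, which matched 350 of 433 junctions. That table's title speaks of NC livers and its column of HFD minus LFD, which was used.

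Members and lists were chosen with earlier results of these data known. Named LSVs are those past the rule, the 12 with the largest difference and a posterior SD under 0.05 at every entry, members in the authors' tables, the 5 genes with most LSVs, the 2 best determined per class, and the 3 genes with the longest retained intron in use. Others were chosen after their values were seen, as were the comparisons of strand. The marker lists cover hepatocytes, Kupffer, endothelial, stellate, bile duct cells and lymphocytes. Of LSVs in genes of this name, 322 of 1693 on the LFD and 32 of 1403 on the HFD had no match on the other diet. A match needed the same identifier and junction coordinates, and LSVs without one were not used. Over all genes, 32268 LSVs were listed on the LFD and 27441 on the HFD, with 26910 matched in this way. The LFD thus had more LSVs in the whole series too. Alternatives covered the difference, its error, intron entries, shared junctions, the 5 genes left out, class counts per gene and the JUM limit. Python 3.11.15, pandas 2.3.3, numpy 2.4.6, scipy 1.17.1 and matplotlib 3.10.9 were used.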

Additional observations from a re-analysis of the deposited data

How the results depend on the processing

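The 15 LSVs past the rule became 75 at a difference of 0.1 and 4 at 0.3. The count was 9 without LSVs that have an entry at an opposite-strand intron, and 6 without these and those sharing a junction with a named gene, alternatives chosen after seeing the data. These 6 were 1.06% of the 568 LSVs left, beside 1.09% of all members and 0.624% of all LSVs. The number fell with the size of the set, and the share stayed near that of all members. The count stayed between 11 and 17 under the other alternatives run for it. Counted once per gene, alternative 5′ sites stood in 60.0% of genes, alternative 3′ sites in 70.8% and exon skipping in 83.6%. Without LSVs sharing a junction, exon skipping stood in 73.4%. The median of the largest difference stayed between 0.00907 and 0.0117. JUM events past the adjusted p were 1 at 0.01 and 11 with any listed event counted. No paired analysis was possible because the tables hold 1 value per diet, and leaving out a replicate was not run for the same reason. Depth is unknown, so no limit on the size of undetected differences is given.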
